A study of Mus musculus with 4 samples.

Results

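The 778 genes described here are those for which 2 or more array probes each separated prostates carrying the R654W form of the retinoblastoma protein from prostates with conditional loss of it. Of these, 498 were higher and 280 lower in the mutant prostates. A gene was taken when at least 2 of its measured probes gave higher ratios on both mutant arrays than on both null arrays, or lower on both, and when no other measured probe of it separated the groups the opposite way. Another 44 genes had probes that separated the groups in opposite directions and were left out. The members made up 13.5% of the 5754 genes with 2 or more measured probes, with a background of 8.65% called higher and 4.87% called lower. In all, 16826 genes were measured by 24852 probes with a ratio on every array. The rule used the very contrast that is described, so the members' differences are a description, and no test was made on them.

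The prostates were taken at 60 days of age, from mice on a mixed C57BL/6, 129/SVJae and FVB background. Each of 4 two-colour arrays compared 1 mouse, in the red Cy5 channel, with a pool of 3 wild-type mice, in the green Cy3 channel. The mutant group was 2 mice with 1 Rb1 allele coding for R654W and the other floxed (Rb1R654W/F), and the null group was 2 mice with both Rb1 alleles floxed (Rb1F/F). All 4 mice also carried floxed Trp53 on both alleles (Trp53F/F) and the Cre transgene PB-Cre4, so the conditional Trp53 genotype was common to both groups. PB-Cre4 is driven by the probasin promoter and acts in prostate epithelium, so floxed alleles in other cell types of the gland are not its target. In each result below, a difference is the mean log2 ratio to the pool in the 2 mutant mice minus that in the 2 null mice, in which the pool cancels.

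The retinoblastoma protein binds E2F transcription factors through its pocket domain and holds back genes for entry into S phase. The series title names the mutant as deficient in E2F binding. The protein also binds chromatin modifiers, and its relatives Rbl1 (p107) and Rbl2 (p130) share the pocket. The design asks how a retinoblastoma protein with this substitution compares with none.

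Null mouse 1 gave the dimmest red channel, with 22183 probes well above background, against 25047 to 26168 on the other arrays, and a median background-subtracted signal of 20.5, against 55.1 to 90.1. It stood apart in its ratios as well. Across probes, Pearson's r was 0.491 between the ratios of both mutant mice and 0.156 between both null mice, while null mouse 2 reached 0.528 and 0.575 with the mutants. Probes are not independent replicates. In limma, 0 of 24914 probes differed between the genotypes after Benjamini-Hochberg adjustment (0.0% called, smallest adjusted p = 0.985), and 546 had an unadjusted p under 0.05. Without null mouse 2 the same fit called 31 probes, 14 higher and 17 lower, with the lone null mouse assumed to vary like the mutants. Precision is limited by having 2 arrays a genotype. In tissue RNA, fewer cells of a type and less RNA per cell cannot be told apart.

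The pair of genes with the widest separation lay within the H-2 complex on chromosome 17, the major histocompatibility region of the mouse. H2-Q10 codes for a secreted class I molecule. Its 4 measured probes are shown because they differed in what they reported. The first 30 of the 60 bases of each are given, in lower case, as the array file has them, with positions of the whole probe in build mm7 on the plus strand.
H2-Q10 chr17:33575263-33575322: tcacttccacactgagaataagaatctgga
H2-Q10 chr17:33574366-33574425: tgctgatctgctgtggccatcattaaagct
H2-Q10 chr17:33574106-33574165: tgggcatctgtggtggtgcctcttgggaag
H2-Q10 chr17:33571803-33571862: ggacgtggcggcgattatcacccgacgcaa
D17H6S56E-5, on the minus strand, was measured by 2 probes, shown in the same way.
D17H6S56E-5 chr17:33094273-33094332: caatcctggtgtaaattacctaactacagt
D17H6S56E-5 chr17:33094798-33094857: cattgtgatatgcaagctctatgttgttaa

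The H2-Q10 probe at 33575263 read 0.57 in mutant mouse 1 and -0.15 in mutant mouse 2, against -2.52 and -2.72 in the null mice, and values below keep this order. The difference was 2.83 (SE 0.29, from limma). The neighbouring probe at 33574366 read 0.34 and -0.25 in the mutants and -2.42 and -3.10 in the nulls, a difference of 2.81 (SE 0.33). Both null mice were therefore far below the wild-type pool at these probes, while the mutants stood close to it. The other 2 probes gave differences of 0.30 (SE 0.36) and 0.32 (SE 0.43), and their arrays overlapped, with null mouse 2 at 0.20 and 0.35. Class I genes are a family of near-identical copies, so which gene each H2-Q10 probe measured is uncertain.

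D17H6S56E-5 read 1.09 and 0.73 in the mutants and -1.39 and -1.26 in the nulls at its brighter probe. The difference was 2.23 (SE 0.21). At its second probe the mutants read 0.42 and 0.68, the nulls -0.94 and -1.03, and the difference was 1.54 (SE 0.19). Here the mutants were above the pool and the nulls below it at both probes, and the mice of each genotype stood close together.

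The other 10 genes with the widest gaps in favour of the mutant had differences from 0.54 to 1.52 at their agreeing probes. Spon2, a secreted matrix protein of the spondin family (brighter probe at chr5:32276714-32276773), read 0.71 and 0.30 in the mutants and -1.25 and -0.62 in the nulls there (difference 1.44, SE 0.29). Its second probe gave 1.36 (SE 0.30). Rnase4, a secreted ribonuclease, read 1.20 and 0.75 in the mutants and -0.76 and -0.34 in the nulls at its dimmer probe, a difference of 1.52 (SE 0.26). Its brighter probe differed by 1.02 (SE 0.25). In both genes, null mouse 1 lay farther from the mutants than null mouse 2. Spint1, a membrane-bound inhibitor of serine proteases, differed by 0.84 (SE 0.24) and 1.28 (SE 0.36). Slc44a4, a membrane transporter, differed by 0.78 and 0.57 at probes that share most of their bases and so count as little more than 1 measurement.

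Man1a, a Golgi mannosidase that trims N-linked glycans, had 3 agreeing probes. The brightest read 0.90 and 0.84 in the mutants and 0.06 and 0.21 in the nulls, a difference of 0.74 (SE 0.18). The others gave 0.54 (SE 0.26) and 0.81 (SE 0.23). Vars, the valyl-tRNA synthetase, read 0.06 and -0.05 in the mutants and -0.80 and -0.91 in the nulls at its brighter probe (difference 0.86, SE 0.18). The second probe of Vars gave 0.76 (SE 0.20), and the mutants again stood near the pool. Rnf5, a ubiquitin ligase of the endoplasmic reticulum, differed by 0.70 and 0.55 at probes that share only a few bases. Slc25a30, a mitochondrial carrier, differed by 1.00 and 0.92 at a pair of probes. Another probe of Slc25a30 gave 0.33 with overlapping arrays.

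The remaining pair of these genes code for nuclear factors. Satb1, which organises chromatin at AT-rich sequence, read 0.56 and 0.31 in the mutants and -0.63 and -0.19 in the nulls at its brighter probe, a difference of 0.85 (SE 0.23). Its second probe differed by 0.97 (SE 0.25). Hoxb9, a homeobox factor of posterior body regions, differed by 0.67 (SE 0.20) and 1.32 (SE 0.35). The larger Hoxb9 value came from mutants at 1.26 and 0.36 and nulls at -0.71 and -0.32, with mutant mouse 1 well above mutant mouse 2.

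**Figure D1:**
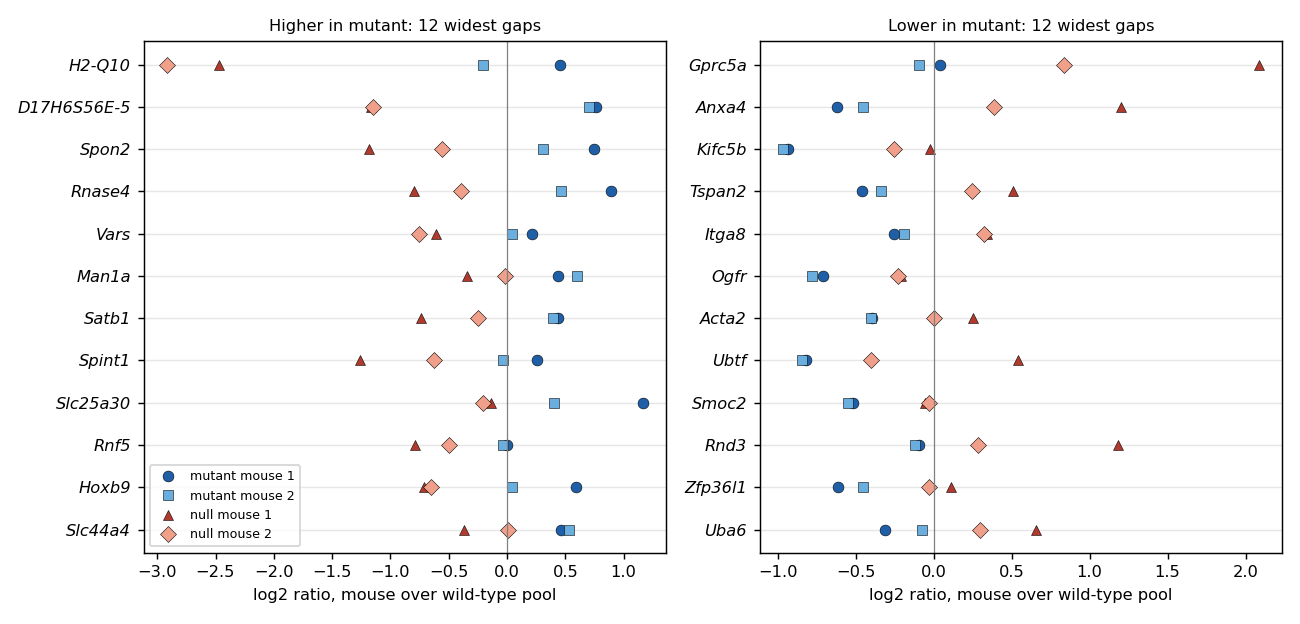
Log2 ratio of each mouse to the wild-type pool (horizontal axis), averaged over the agreeing probes, for the 12 genes with a symbol and the widest gaps in each direction. Circles and squares are mutant mice 1 and 2, triangles and diamonds null mice 1 and 2. H2-Q10 and D17H6S56E-5 stand apart at the top of the left panel, and null mouse 1 lies at the outer edge of most genes in the right panel.

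Among genes lower in the mutant, Gprc5a, an orphan receptor induced by retinoic acid, had the widest gap. Its brighter probe, at chr6:135098894-135098953, read 0.07 and -0.22 in the mutants and 2.06 and 0.74 in the nulls, a difference of -1.47 (SE 0.46). Its second probe read 0.01 and 0.03 against 2.11 and 0.94 (difference -1.50, SE 0.41). The mutants stood at the level of the pool and both nulls above it, null mouse 1 by far the most. Anxa4, a calcium-dependent phospholipid-binding annexin (brighter probe at chr6:86812115-86812175), read -0.79 and -0.29 in the mutants and 1.45 and 0.56 in the nulls (difference -1.54, SE 0.37). Its second probe gave -1.11 (SE 0.29).

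Rnd3, a small GTPase that acts on the actin cytoskeleton, had 3 agreeing probes with differences of -1.24 (SE 0.44), -0.75 (SE 0.29) and -0.53 (SE 0.29). Null mouse 1 read 1.89 at the first of these and null mouse 2 read 0.63, against -0.06 and 0.09 in the mutants. Tspan2, a tetraspanin, differed by -0.74 (SE 0.20) and -0.82 (SE 0.19). Kifc5b, a kinesin motor gene that the array file names Kifc1, differed by -0.88 (SE 0.21) and -0.74 (SE 0.18). It has a near-identical copy, so the identity of the gene measured is uncertain. Uba6, an enzyme that activates ubiquitin, differed by -0.97 and -0.37, while another of its probes gave -0.09 with overlapping arrays.

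Some lower genes had close agreement within each genotype. Ogfr, the opioid growth factor receptor, had a mutant mean of -0.96 (SD 0.06, n = 2) and a null mean of -0.42 (SD 0.01, n = 2), a difference of -0.53 (SE 0.17), and its second probe gave -0.52. Smoc2, a matricellular protein of the SPARC family, read -0.50 and -0.63 against -0.10 and -0.08 (difference -0.48, SE 0.18), with -0.50 at its second probe. Zfp36l1, which promotes decay of AU-rich messenger RNAs, differed by -0.50 (SE 0.18) and -0.65 (SE 0.19). Ubtf, the activator of ribosomal RNA transcription by RNA polymerase I, differed by -0.92 and -0.88 at probes that share only a few bases. Null mouse 1 was at 0.58 and null mouse 2 at -0.41 at the brighter probe. With median centring in place of loess, Ogfr, Smoc2 and Zfp36l1 averaged 0.068, 0.076 and 0.037, on a scale where the median of all probes was 0.38.

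Most members differed little. The smaller of the qualifying gaps, between the nearest mice of the 2 genotypes, had a median of 0.066 among the higher and 0.065 among the lower genes. It reached 0.2 in 58 higher and 44 lower genes and was under 0.05 in 198 and 104. The median size of the difference was 0.36 in the higher and 0.37 in the lower genes, and it passed 1 in 11 genes of each direction. Every measured probe separated the groups in 300 higher and 172 lower genes, and 3 or more probes did in 48 and 25. At the edge of the rule, Zfp97, a zinc finger gene just inside it, differed by 0.12 and 0.10, and Bcas2, a splicing factor, by -0.41 and -0.23 with its dimmest probe at 0.22. Just outside stood Brms1l, with 0.35 at both probes, and Mospd1, with 0.27 and 0.10.

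Across all 5754 genes, the brightest and second brightest probes gave differences of the same sign in 65.1%. Probes of a gene share the same 4 RNA samples, so they repeat the measurement and not the mice. Abpb, an androgen-binding protein gene, had the largest difference of these at a brightest probe, 3.11, with 3.04 at its second, but its arrays overlapped and it was not a member.

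**Figure D2:**
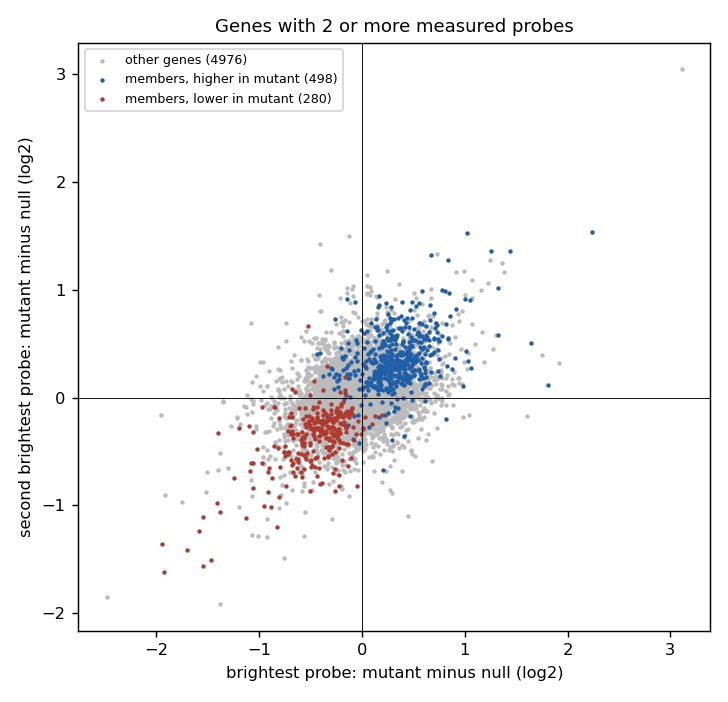
Mutant minus null difference (log2) at the brightest probe (horizontal axis) and the second brightest probe (vertical axis), with 1 point for each of 5754 genes. The 498 members higher in mutant are blue, the 280 lower are red and the other 4976 genes are grey. Some members lie off the diagonal because their agreeing probes were not the brightest pair.

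Against the wild-type pool, 311 of the 498 higher genes had a mutant mean above it and a null mean below it. Both means were above the pool in 96 and both below in 91. Of the 280 lower genes, 194 had a mutant mean below the pool and a null mean above it, 47 had both above and 39 both below. The higher genes had median ratios of 0.21 and 0.14 in the mutants, -0.27 in null mouse 1 and -0.08 in null mouse 2. The lower genes had medians of -0.21, -0.11, 0.31 and 0.09 in the same order. Null mouse 1 was the null mouse farther from the mutant mean in 82.7% of the higher and 83.2% of the lower genes, against 73.5% of all 5754 genes. The part that this mouse had in the members was not tested beyond these values and the counts without it.

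Smooth muscle was the list with the largest number of members. Prostate glands are wrapped in smooth muscle, and the list holds contractile and adhesion genes of this cell type. Of 18 genes, 17 were measured, 10 by 2 or more probes. Of these 10, 6 were members, all lower in the mutant, against 4.87% of all genes. With median centring 0 were lower and 1 was higher (1.06% and 34.7% of all genes), while 4 were lower once that setting's median shift was subtracted (748 of the 5754 genes). Among the 17 measured genes the difference at the brightest probe ran from -0.93 to -0.22, with a median of -0.56, against 0.01 over all genes. At these probes the arrays did not overlap in 14 of the 17, all lower, against 14.9% higher and 14.6% lower among the brightest probes of all genes. The median ratio of the list was -0.43 and -0.48 in the mutants, 0.25 in null mouse 1 and -0.10 in null mouse 2. Null mouse 1 was above null mouse 2 in 16 of 17 genes. Without null mouse 1, 6 were lower and 1 higher, where the rule with 1 null mouse called 14.2% of all genes lower and 19.3% higher.

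Acta2, the smooth muscle actin, had 4 measured probes, which all agreed, at -0.25, -0.13, -0.53 and -1.21. At the last of these, at chr19:33941939-33941997, the mutants read -0.98 and -0.77, null mouse 1 read 0.72 and null mouse 2 read -0.06. With median centring the mean over the Acta2 probes was 0.072, under the 0.38 median of that setting. Itga8, the integrin subunit alpha 8 of contractile cells, read -0.26 and -0.16 in the mutants and 0.31 and 0.37 in the nulls (difference -0.55, SE 0.18), and its second probe also gave -0.55. The null mice were nearly equal in Itga8, unlike most of the list. The tropomyosins Tpm1 and Tpm2, which lie along actin filaments, averaged -0.66 over 3 and -0.80 over 2 probes. The order in both was mutants lowest, then null mouse 2, then null mouse 1. Pgm5, a protein of adherens junctions in muscle, averaged -0.61, and Synpo2, an actin-binding protein, averaged -0.53 over 4 agreeing probes.

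Heat shock genes gave 4 lower and 0 higher members of 14 with 2 or more probes, against 4.87% and 8.65% of all genes. These 4 rested mostly on null mouse 1. Dnaja1, a co-chaperone of Hsp70, read 0.13 and -0.10 in the mutants, 3.69 in null mouse 1 and 0.20 in null mouse 2 at its brightest probe (difference -1.93, SE 1.12). Hspd1, the mitochondrial chaperonin, read 0.08 and 0.30 against 3.05 and 0.42. Bag3, a co-chaperone, read -0.54 in both mutants against 2.44 and -0.34. Hspa4l, of the Hsp110 family, read 0.12 and 0.37 against 2.55 and 0.70. At these brightest probes null mouse 2 was above the mutants by a small margin, and null mouse 1 was above all others by over 1 log2 unit. The dimmest Hspa4l probe overlapped, with 0.61 and 0.10 in the mutants and 0.98 and 0.06 in the nulls. Of the 23 measured genes, 15 were lower without overlap at the brightest probe and 1 higher, against 14.6% and 14.9% of all genes. The median ratio over the 23 was 2.21 in null mouse 1 and between -0.05 and 0.18 on the other arrays. Without null mouse 1 the member count was 3 lower genes, where the looser rule called 14.2% of all genes lower. Without null mouse 2 it was 12 lower and 1 higher, against 21.6% and 27.2% of all genes.

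Cholesterol synthesis genes gave 4 higher and 0 lower members of 16 with 2 or more probes, against 8.65% and 4.87% of all genes. Their differences were smaller. Hsd17b7, a sterol reductase, differed by 0.32 (SE 0.19) and 0.45 (SE 0.21). Nsdhl, a sterol dehydrogenase, averaged 0.37 over its agreeing probes, and Mvk, the mevalonate kinase, averaged 0.36. Hmgcs1, the synthase that makes HMG-CoA, differed by 0.22 (SE 0.19) at an agreeing probe and was at least 1.28-fold higher in the mutants at its dimmest, which was not well above background in the nulls. The brightest Hmgcs1 probe gave -0.14 with overlapping arrays. With median centring and its shift subtracted, 0 of the 16 were members, and the mean of the agreeing Hmgcs1 probes was -0.18. The median difference over the 22 measured genes was 0.13, against 0.01 over all genes. At the brightest probe, 5 of the 22 were higher without overlap and 3 lower, against 14.9% and 14.6% of all genes. The lowest difference was -0.62. The median ratio of the list was -0.13 in mutant mouse 1 and 0.22 in mutant mouse 2, then -0.04 and -0.13 in the nulls. By these medians the list did not separate the genotypes. Without null mouse 1 the count was 9 higher and 1 lower, against 19.3% and 14.2% of all genes.

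**Figure D3:**
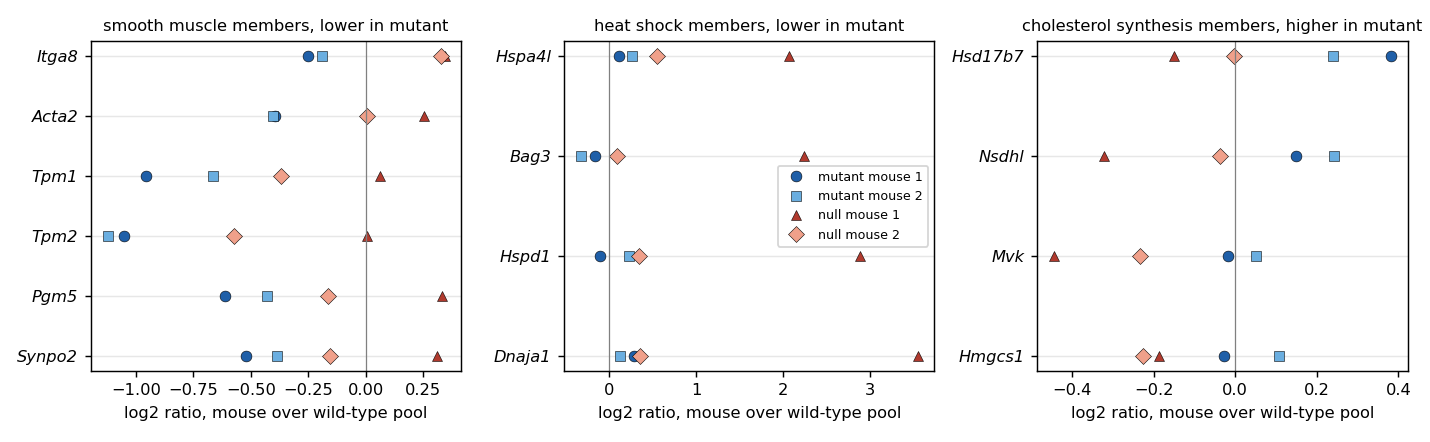
Log2 ratio of each mouse to the wild-type pool, averaged over agreeing probes, for the 6 smooth muscle, 4 heat shock and 4 cholesterol synthesis members. Circles and squares are the mutant mice, triangles and diamonds null mice 1 and 2. Null mouse 1 lies above 2 in all 4 heat shock genes, while null mouse 2 stands near the mutants there, and the horizontal scales differ between panels.

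The lists of cell cycle genes held few genes with 2 or more probes. Among all genes with 2 or more probes, 8.65% were higher members and 4.87% lower. None of the 12 genes of the Rb family and E2F list with 2 or more probes was a member, and none of the 11 E2F targets of S phase entry was. Counts of 0 among so few genes do not set them apart from all genes. At the brightest probe, 0 of 46 measured E2F targets were higher without overlap and 2 lower, against 14.9% and 14.6% of all genes. Their median ratio was 0.37 and 0.39 in the mutants, then -0.07 in null mouse 1 and 0.50 in null mouse 2. In the Rb family and E2F list, 2 of 23 measured genes were higher in this way and 5 lower. E2f1, an activator of S phase genes, differed by 0.37 (SE 0.28) and 0.01 (SE 0.18), with overlapping arrays at both probes. E2f2, of the same kind, read 1.15 and 0.63 in the mutants and 0.22 and 0.75 in the nulls. E2f3 was separated at 1 of 3 probes (-0.32, SE 0.22). Rbl1 was separated at its single probe by a narrow margin, with 0.38 and 0.56 in the mutants and -0.22 and 0.35 in the nulls, and Rbl2 overlapped at both probes. Of 5 genes for mitosis with 2 or more probes, 2 were higher members. At the brightest probe, 6 of 25 measured mitosis genes were higher without overlap and 0 lower, against 14.9% and 14.6% of all genes. Ccnb1, the cyclin of mitotic entry, differed by 0.35, 0.28 and 0.22 at 3 probes, and was at -0.13 with median centring and its shift subtracted. The dimmest Ccnb1 probe was not well above background in the nulls, so it is given as at least 1.13-fold higher in the mutants. Mad2l1, of the spindle checkpoint, differed by 0.24 and 0.31.

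Rb1 itself had 1 measured probe, at chr14:67877318-67877377. It read -0.65 and -0.24 in the mutants and 0.09 and -0.87 in the nulls, so the genotypes overlapped. Whether this probe lies in the floxed part was not tested, so it does not check the genotype labels. Trp53, floxed in all 4 mice, read 0.14 and 0.12 in the mutants and 0.53 and 0.08 in the nulls at its brighter probe, above the pool on all 4 arrays. Its second probe read -0.08 and -0.27 in the mutants and -0.05 and -0.40 in the nulls, below the pool on all 4. Trp53 overlapped at both probes, with differences of -0.18 and 0.05. Whether these probes lie in the floxed part was not tested. Mdm2, the ubiquitin ligase for the Trp53 protein and itself a target of it, differed by 0.27 (SE 0.20) and 0.31 (SE 0.18). It was the single member of 10 Trp53 list genes, where 8.65% of all genes were higher members and 4.87% lower. At the brightest probe, 2 of 27 measured genes of this list were higher without overlap and 5 lower, against 14.9% and 14.6% of all genes. The median difference of the list was -0.21.

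The other lists held between 0 and 3 members, where 8.65% of all genes with 2 or more probes were higher members and 4.87% lower. Higher members were B2m, the light chain of class I molecules, among 8 class I genes together with H2-Q10, and Rps18. B2m differed by 0.52 and 1.20 at a pair of probes, the latter with a gap of 0.0025. Its brightest probe gave 0.21 with overlapping arrays. Rps18 differed by 0.49 and 0.74 at a pair of probes and by 0.06 with overlapping arrays at another. The oxidative phosphorylation list of 9 gave Ndufa1 and Sdha higher and Cox7a2 lower, the last at -0.31 and -0.46, but 0.23 with median centring. The Cox7a2 probes share most of their bases. Another Sdha probe gave -0.17 with overlapping arrays. Immediate early genes gave Klf6 (-1.41 and -0.97) and Myc (-0.35 and -0.38) as lower members of 6, with null mouse 1 at 1.72 in the first Klf6 probe and null mouse 2 at 0.04. Myc was at 0.24 with median centring. A single higher member came from the prostate secretory (Mme, a membrane peptidase, 0.65 and 0.54), luminal (Ehf), neuroendocrine (Ncam1), skeletal muscle (Myh2), endoplasmic reticulum stress (Pdia6) and Rb-associated chromatin modifier (Ring1) lists. In this order, the median differences of these lists were 0.50, -0.20, 0.24, -0.01, -0.48 and -0.10. At the brightest probe, 3 of 20 luminal, 4 of 25 endoplasmic reticulum stress and 5 of 33 chromatin modifier genes were lower without overlap. In each of these, 1 gene was higher. Of the others, 0 of 19 prostate secretory, 2 of 19 neuroendocrine and 3 of 15 skeletal muscle genes were lower, and 6, 0 and 5 higher. All genes gave 14.6% lower and 14.9% higher. The brightest Ehf probe gave 0.16 with overlapping arrays. Dst was the single lower member of 9 basal epithelial genes, and its brightest probe gave -0.43 with overlapping arrays. At the brightest probe, 7 of 17 measured basal genes were lower without overlap and 2 higher, against 14.6% and 14.9% of all genes. Their median ratio was -0.24 and -0.09 in the mutants, then 0.60 and -0.10 in the nulls. The median difference of the basal genes was -0.42, the same sign as that of the smooth muscle genes, and their part in that list's values was not tested. Ncam1 separated at 2 of 6 probes and Pdia6 at 2 of 4, where the other Pdia6 probes gave -0.36 and 0.12 with overlapping arrays.

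Markers of other cells gave 0 members among 9 fibroblast, 9 macrophage, 5 adipocyte, 3 mast cell, 2 endothelial and 2 lymphocyte genes with 2 or more probes. The same held for 10 interferon response, 10 glycolysis, 2 class II, 3 Ifi200 and 1 inhibin and activin genes. Lists this short can hold 0 members at the shares of all genes, 8.65% higher and 4.87% lower. The null mice also differed from each other in some lists, with medians of -0.18 and 1.09 in macrophage, -0.32 and 0.77 in fibroblast and -0.86 and 0.61 in adipocyte genes. The prostate secretory genes were well above background on all 4 arrays in 17 of 19 measured, and the luminal genes in all 20. Seminal vesicle genes had no gene with 2 measured probes. Their 5 measured genes had median ratios of -4.13 and -0.79 in the mutants and -5.29 and -3.72 in the nulls, so the levels of these genes of a neighbouring gland differed between arrays, within the mutant group too. Their part in the members was not tested.

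By position, members were most numerous in 1 window. Of 1060 windows of 2 Mb that held genes with 2 or more probes, 6 held 5 or more members. The window from 32000001 to 34000000 on chromosome 17 (mm7) held 11 members among 33 genes, all higher, and the next held 6 each, of 18 genes on chromosome 2, B2m among them, and of 24 on chromosome 10, with 1 of those 6 lower. This window covers much of the H-2 complex, and was chosen because of its count. Besides H2-Q10, D17H6S56E-5, Vars, Rnf5 and Slc44a4, the members were Ring1, a Polycomb ubiquitin ligase, Rps18, a ribosomal protein, Stk19, Ly6g6d, Atp6v1g2, a proton pump subunit, and Nrm, a nuclear envelope protein. Of its 154 probes, 27.9% had both mutants above both nulls and 7.79% the reverse, against 16.8% and 13.6% of all probes. Their median difference was 0.13, against 0.02 over all probes.

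Within the window the differences were not uniform. Nrm, 0.18 and 0.13 at probes that overlap, was near the edge of the rule and stood at -0.26 with median centring and its shift subtracted, where the window gave 6 higher and 2 lower members. Ring1 differed by 0.33 and 0.50, Ly6g6d by 0.65 and 0.48 and Atp6v1g2 by 0.43 and 0.21. The Ly6g6d probes share part of their bases. Stk19 differed by 0.26 and 0.61 at a pair of probes, while another gave -0.18. H2-Eb1, a class II chain with a single probe and so no member, read 1.03 and 0.88 in the mutants and -0.63 and -0.51 in the nulls. The 4 probes of Hspa1a, an Hsp70 gene in the same window, were lowest, at -2.48 to -1.65, with null mouse 1 between 2.87 and 5.89 and overlapping arrays. When only pairs of probes sharing no base were counted, 7 members remained in the window. Without null mouse 1 the window had 11 higher and 6 lower genes, against 19.3% and 14.2% of all genes. Without null mouse 2 it had 20 and 2, against 27.2% and 21.6%. The mice were of mixed strain, and whether the strain origin of this window differed between the genotypes was not tested.

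**Figure D4:**
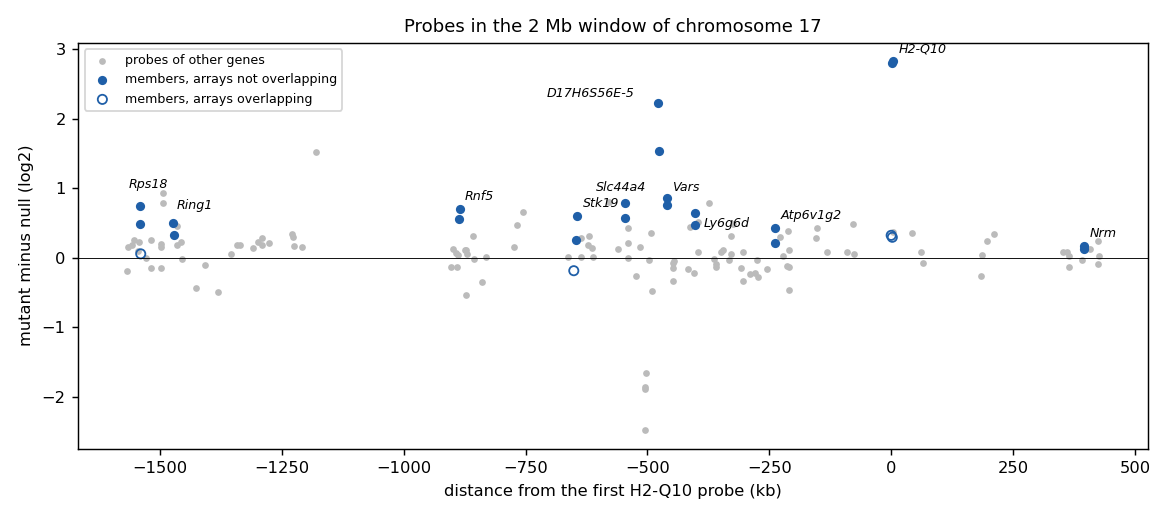
Mutant minus null difference (log2, vertical axis) of 154 probes in the 2 Mb window of chromosome 17, by distance in kb from the first H2-Q10 probe. Filled blue points are probes of the 11 members with arrays that did not overlap, open points are members' probes that overlapped and grey points are other genes. The highest points are H2-Q10 and D17H6S56E-5, and the lowest grey points are the Hspa1a probes.

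Of 9 genes prominent in an earlier account of these data, D17H6S56E-5 was a member and the others were not. Ifi203, an interferon-inducible gene, differed by 1.61 (SE 0.26) at 1 probe, with 0.90 and 0.31 against -0.95 and -1.06, but by -0.17 with overlap at another. Kdm5b, a histone demethylase, differed by -1.35 (SE 0.26) and -0.03, and Klhl42, a ubiquitin ligase adaptor, by -1.12 (SE 0.18) and 0.02. The second probes of Ifi203, Kdm5b and Klhl42 thus did not repeat the first. H2-Eb1, Hdc (-0.88), Rbm45 (1.30), Dact2 (-1.12) and Inhbb (-0.94) had 1 measured probe each, so the rule could not be applied to them.

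In the authors' deposited table, which lists ratios of group means from the same arrays, 103 higher members were found by a single accession and 88 had the same direction. Of 66 lower members found there, 61 had the same direction. The authors' deposited table gives Slc25a30 at 2.16 times higher in mutant, Acta2 at 2.40 times lower and Uba6 at 2.44 times lower. Pdia6 had the opposite direction there, at 1.18 times lower in mutant. Each value there is a ratio of linear group means for a single entry. Measured probes of a gene could differ, as those of Acta2 did, from -0.13 to -1.21 in log2. These values come from the same 4 mice and add no replicate.

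Promoter windows from RefSeq (GRCm38.p6), of 250 bases before to 50 after a gene's start, were matched to 387 of the higher and 217 of the lower members. An E2F motif was counted where TTTCCCGC, TTTCGCGC, TTTGCCGC or TTTGGCGC occurred on either strand. It was found in 18 higher members (4.65%) and 7 lower members (3.23%), against 4.76% of the 4582 matched genes with 2 or more probes and 2.60% of all 27025 genes with a window. Among the 8 matched genes of the 12 with the widest higher gaps, D17H6S56E-5 alone held it. Its 250 bases before the start, at chr17:35000747-35000996 on the minus strand, are shown because this is the leading member with an E2F motif, which is in capitals and begins 91 bases before the start.
D17H6S56E-5 promoter: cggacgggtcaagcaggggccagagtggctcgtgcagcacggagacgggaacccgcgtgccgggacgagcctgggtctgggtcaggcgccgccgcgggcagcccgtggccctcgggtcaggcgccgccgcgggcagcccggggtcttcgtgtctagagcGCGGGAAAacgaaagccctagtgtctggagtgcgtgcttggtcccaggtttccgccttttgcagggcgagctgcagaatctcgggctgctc

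Further motifs were counted for the lists with members, on both strands. The heat shock element, GAANNTTCNNGAA, was in 0.662% of all genes with a promoter window and in 1 of the 4 heat shock members, Hspd1. Its promoter at chr1:55087933-55088182 on the minus strand held 2 overlapping matches, shown in capitals because this is the heat shock member with a match.
Hspd1 promoter: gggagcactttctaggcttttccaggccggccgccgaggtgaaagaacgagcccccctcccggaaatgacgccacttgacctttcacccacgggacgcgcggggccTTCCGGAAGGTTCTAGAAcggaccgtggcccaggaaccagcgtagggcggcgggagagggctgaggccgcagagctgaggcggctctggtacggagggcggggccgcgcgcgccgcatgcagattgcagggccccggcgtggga
The CArG box, the site of serum response factor in muscle genes, was counted only as CCWWWWWWGG, with W for A or T, and not in other forms. It was in 1.81% of all genes with a window and in 0 of the 6 smooth muscle members. Among the 9 matched genes of the 12 with the widest lower gaps, Rnd3 held it. Its promoter at chr2:51149112-51149361 on the minus strand is shown with the box in capitals, beginning 100 bases before the start.
Rnd3 promoter: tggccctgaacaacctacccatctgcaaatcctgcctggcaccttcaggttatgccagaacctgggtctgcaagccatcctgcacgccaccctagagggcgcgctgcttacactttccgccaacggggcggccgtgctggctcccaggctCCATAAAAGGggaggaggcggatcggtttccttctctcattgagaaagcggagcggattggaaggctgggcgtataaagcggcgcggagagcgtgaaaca
The sterol element TCACNCCAC was in 1.44% of all genes with a window and in Hmgcs1 of the 4 cholesterol members. These matches are a description of letters in a window and say nothing of binding in these prostates.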

How the data were processed

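The deposited scanner files give spot intensity, read with Agilent Feature Extraction 9.5.1.1 per the file headers (8.5 per the submitters' processing notes). Mean signals were corrected against background medians by normexp (offset 50) and loess-normalised within each array (limma 3.58.1, R 4.3.3). The loess gave control spots weight 0. Outlier-flagged spots were left out and spots of a probe were averaged. Probes counted as measured if both mice of either genotype, or the pool on all 4 arrays, were well above background. The fit took probes with missing arrays, and the member rule only probes with all 4. The log10 ratios in the files, per the file headers computed from dye-normalised processed signals, were not used as such. The table of group means that the authors deposited holds linear ratios.

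Gene names came from RefSeq (GRCm38.p6) by accession for 22951 probes, symbol for 6659 and older symbol for 3109, and 8455 kept the file's name. Positions of probes are the files', in mm7. Named genes were the 12 widest second gaps in each direction, up to 4 members of each of 30 gene lists, the Rb1, Trp53 and E2F genes, genes prominent in an earlier account and those at the rule's edge. The members and lists were chosen with earlier results of these data known. Hspa1a, Abpb and the chromosome 17 window were chosen after their values were seen. Scripts were tested on simulated data. The mice are individuals, 2 a genotype, on arrays of a single slide, where each genotype held neighbouring places, so place on the slide cannot be told apart from genotype. Which part of a gene a probe lies in was not worked out. Folds written "at least" divide the brighter genotype's mean by the dimmer's, where each dim array counts at its own signal or at that array's lowest signal above background, whichever is higher. Python 3.11.15 applied the rule. The ribosomal protein list is not reported here as a whole.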

Additional observations from a re-analysis of the deposited data

How the results depend on the processing

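The member counts depended on the normalization. With median centring of the ratios in place of loess there were 1997 higher and 61 lower members, and the median difference over all probes moved from 0.02 to 0.38. With that shift subtracted, an alternative added after the data were seen, there were 140 higher and 748 lower, and 18.7% of the higher and 48.2% of the lower members were kept. Agilent's processed signals gave 473 and 326, an offset of 16 gave 489 and 285, and Aquantile left the ratios as they were. Without a filter on dim probes there were 445 lower members. Asking only the same sign of the second probe gave 616 lower members, asking every probe to agree gave 300 higher and 172 lower, and a gap of 0.2 gave 58 and 44. Leaving out 1 array, which makes the rule easier to meet, gave 1069 to 1567 higher and 758 to 1243 lower members. With median centring the differences of Ogfr (0.0681), Acta2 (0.072), Smoc2 (0.0756), Zfp36l1 (0.0366), Myc (0.24), Cox7a2 (0.23) and Bcas2 (0.30) turned above 0, and with the shift subtracted Ccnb1 (-0.13), Hmgcs1 (-0.18), Zfp97 (-0.0309) and Nrm (-0.26) turned below 0. The cause was not tested.

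In limma, 0 probes were called under each alternative except without null mouse 2, which gave 31, so leaving out 1 array gave 0 to 31. The labels number the mice of both groups 1 and 2. With the replicate block, 0 probes were called and 441 had an unadjusted p under 0.05. Deviations of same-numbered mice correlated at 0.0035 across probes. With 2 mice a genotype, this value cannot show whether same-numbered mice shared more than a number.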
